A study of Homo sapiens with 12 samples.

Results

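The RNA of unmodified H295R cells was described from 4 of the 12 libraries of the series, those titled WT and numbered by the labels as replicates 3, 4, 5 and 6. H295R is an established line grown from a human adrenocortical carcinoma, a cancer of the steroid-producing outer layer of the adrenal gland. The series also holds 4 libraries of cells with lowered DLK1 (KD) and 4 of cells with raised DLK1 (OE), which do not enter here, so no groups were compared and no test was made. The WT cells carry the genotype label WT and no agent is named for them. RNA was taken with spin columns from cells that covered 70% of the dish, and strand-specific libraries were read from both ends. The labels do not say whether the 4 libraries came from separate cultures, so the spread between them may be technical.

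The adrenal cortex makes steroids from cholesterol. Cholesterol is taken up from lipoproteins or made in the cell, carried into mitochondria by the StAR protein and cut to pregnenolone by CYP11A1. Enzymes of the endoplasmic reticulum and the mitochondria then turn pregnenolone into cortisol, aldosterone and adrenal androgens. The orphan nuclear receptor SF-1, encoded by NR5A1, is the main transcription factor of these genes, ACTH drives them through cyclic AMP, and angiotensin II and potassium drive aldosterone synthesis through calcium.

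The gene counts of replicates 3, 4, 5 and 6 summed to 10725147, 10584491, 12164240 and 9303266. Levels are given as CPM, counts scaled to a sum of 1000000 per library, as mean ± SD over the 4 libraries (n = 4). Levels of different genes were compared as CPM per kilobase of exon, ranked among the 19889 protein-coding genes of the nuclear genome. The SD of such a value covers the spread between libraries and not the uncertainty of the exon length. A gene with 0 counts in all 4 libraries could have a level of up to 0.0701 CPM, the value of 3 counts in their summed depth. This limit covers counting error only. Of all 60670 genes with values, 13837 reached 1 CPM in every library and 33135 had 0 counts in all 4. Among the protein-coding nuclear genes, 12063 (60.7%) reached 1 CPM in every library, 3857 (19.4%) had 0 counts in all 4 libraries, and the median level was 1.58 CPM per kilobase. These percentages are the background for the counts of gene groups given here. Genes of the mitochondrial genome took 7.93 ± 0.298% of the counts and the 100 highest genes 18.6 ± 0.274%. Pearson correlations of log2 CPM between libraries, across the 13837 genes, were 0.988 to 0.990 (genes are not independent replicates). Every pair of libraries differed by more than sampling noise, with a chi-square per degree of freedom of 2.73 to 3.55.

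Markers of the labelled cell type are given first. Their list was chosen with earlier results of these data known, so they do not test the identity of the cells. All 5 of 5 adrenocortical markers reached 1 CPM in every library, and NR5A1, STAR, CYP11A1 and CYP21A2 passed 100 CPM. NR5A1 averaged 543 ± 23.4 CPM and CYP17A1, the lowest of the 5 markers per kilobase, averaged 47.1 ± 3.41 CPM. Their summed level was 1425 to 1516 CPM. Of 107 markers of 11 other lineages, 20 (18.7%) reached 1 CPM in every library and 33 (30.8%) had 0 counts in all 4. The background shares are 60.7% and 19.4%. TH and DBH, which encode the enzymes of catecholamine synthesis in chromaffin cells of the adrenal medulla, had 0 counts, as had PHOX2A and SLC18A1. Of the 14 chromaffin markers, 4 (28.6%) reached 1 CPM in every library (NCAM1, SYP, CHGB and CHGA), and their values are given with the other lineages. Among the 11 gonadal somatic markers, 4 (36.4%) did so too (AMH, CYP19A1, AMHR2 and INHA).

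Promoter sequences of 3 genes of the pathway are shown first, because they carry the contrast that the section on promoters returns to. They are the 250 bases before the RefSeq start of CYP11A1 (chr15:74367647-74367896, minus strand), CYP17A1 (chr10:102837414-102837663, minus strand) and FDX1 (chr11:110429698-110429947, plus strand), in GRCh38.p14, each written 5′ to 3′ along the gene. Capitals mark CG, the pair of bases that DNA methylation uses in human cells.
CYP11A1: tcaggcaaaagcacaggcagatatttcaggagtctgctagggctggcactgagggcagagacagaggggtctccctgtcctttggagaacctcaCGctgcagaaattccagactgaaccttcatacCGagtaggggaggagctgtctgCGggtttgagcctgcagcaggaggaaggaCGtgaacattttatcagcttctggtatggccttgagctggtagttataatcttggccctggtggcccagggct
CYP17A1: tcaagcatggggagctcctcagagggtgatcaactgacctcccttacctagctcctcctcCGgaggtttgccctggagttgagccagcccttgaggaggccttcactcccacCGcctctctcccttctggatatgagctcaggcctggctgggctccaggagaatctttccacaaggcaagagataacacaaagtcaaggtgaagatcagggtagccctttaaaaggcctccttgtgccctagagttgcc
FDX1: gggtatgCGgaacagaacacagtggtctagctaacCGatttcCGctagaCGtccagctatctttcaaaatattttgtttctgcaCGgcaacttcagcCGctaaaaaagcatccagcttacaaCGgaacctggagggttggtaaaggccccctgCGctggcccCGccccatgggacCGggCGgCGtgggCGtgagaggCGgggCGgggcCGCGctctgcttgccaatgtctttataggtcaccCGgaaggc
CYP11A1 and CYP17A1 belong to adrenal and gonadal cells, whereas ferredoxin 1, which passes electrons to mitochondrial P450 enzymes, is made in many tissues. The CYP11A1 window held 4 CG pairs, the CYP17A1 window 2 and the FDX1 window 18. These genes are examples, and values of other steroid synthesis genes are given in the section on promoters.

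Many of the highest genes were of general cell function. Per kilobase the order began with PPIA, for the peptidyl-prolyl isomerase cyclophilin A, at 1034 CPM per kilobase. EEF1A1, the translation elongation factor, followed at 651 and RPL41, a ribosomal protein, at 608 CPM per kilobase. PCP4, a small calmodulin-binding protein known from Purkinje cells, came 4th at 607 CPM per kilobase. It had 693, 644, 689 and 658 CPM in replicates 3, 4, 5 and 6. These 4 values lay close together, with replicates 3 and 5 a little above the others, and the levels of RPL41, PCP4 and ACTG1 per kilobase did not differ beyond their spread.

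DLK1, an imprinted gene for a membrane protein related to Notch ligands, was the 4th nuclear gene by CPM and the 14th per kilobase. It had 2755, 2701, 2632 and 2460 CPM, lowest in replicate 6. SPARC, for a secreted matricellular glycoprotein, stood next to it per kilobase with 2385, 2402, 2390 and 2308 CPM. Their levels were 496 ± 24.2 and 491 ± 8.93 CPM per kilobase, a difference smaller than the spread of DLK1. EPRS1, a bifunctional aminoacyl-tRNA synthetase, was 5th by CPM and varied least of the 25 highest genes, with a coefficient of variation (CV, the SD over the mean) of 0.519%. SCARB1, the receptor that takes cholesterol ester from high-density lipoprotein, was 8th by CPM at 2162 ± 37.0 CPM. KCNK3, a potassium leak channel, was 21st at 1390 ± 44.5 CPM and PEG10, an imprinted gene of retrotransposon origin, 20th at 1408 ± 46.4 CPM. Among the nuclear genes that do not code for protein, with pseudogenes left out, MEG3, the imprinted long RNA of the DLK1 region, was highest by CPM with 1079, 1135, 1240 and 1261 CPM. It was thus lowest in replicate 3 and highest in replicate 6, the reverse of DLK1. Neither order was particular to this region. The long RNAs MALAT1 and NEAT1 were also lowest in replicate 3 and highest in replicate 6. EEF1A1 and GAPDH were highest in replicate 3 and lowest in replicate 6, as DLK1 was, while PCP4 and KCNK3 followed neither order. With 4 libraries no relation between these genes was computed.

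**Figure D1:**
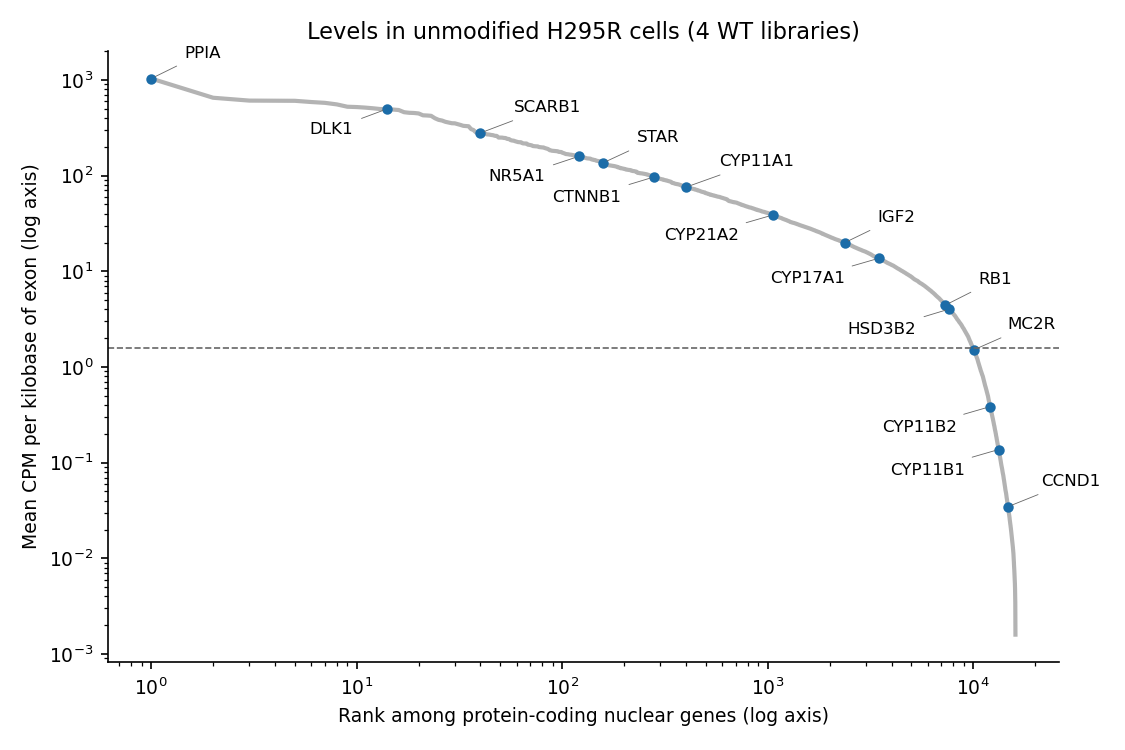
Level of each protein-coding nuclear gene with at least 1 count, as mean CPM per kilobase of exon over the 4 WT libraries (log axis), against its rank from highest to lowest. Labelled points are genes named in the text, and the dashed line is the median of all 19889 genes, 1.58 CPM per kilobase. NR5A1 and STAR lie among the highest 200 genes, whereas HSD3B2 lies above the dashed line by less, MC2R near it and CYP11B2 below it.

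Several transcripts of the first steps of steroid synthesis were abundant. STAR, for the protein that moves cholesterol into mitochondria, had 527, 522, 501 and 500 CPM, values within a narrow range. Its 136 ± 3.74 CPM per kilobase was above 99.2% of protein-coding genes. CYP11A1, the side chain cleavage enzyme, had 269, 276, 259 and 252 CPM and 75.6 ± 2.98 CPM per kilobase. On the opposite strand another annotated gene covers 29.0% of the CYP11A1 exons, and the strand setting of the counting is not given, so a part of these counts is uncertain. FDXR, the reductase that supplies ferredoxin, had 215 ± 6.00 CPM and FDX1 had 128 ± 9.82 CPM. FDX1 was highest in replicate 6 at 141 CPM and lowest in replicate 4 at 117 CPM. Of the 11 genes for cholesterol entry and side chain cleavage, 8 (72.7%, against the background of 60.7%) reached 1 CPM in every library. TSPO, an outer mitochondrial membrane protein that binds cholesterol, had only 22, 20, 30 and 24 counts (2.25 ± 0.329 CPM). STARD5, STARD6 and FDX2 stayed under 1 CPM, and other genes on the same strand cover 70.9% of the FDX2 exons.

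The branch to cortisol and aldosterone was uneven. CYP21A2, the 21-hydroxylase, had 105, 108, 126 and 112 CPM, highest in replicate 5. CYP21A1P, its pseudogene, had 1.56 ± 0.425 CPM. Of the 100-base stretches of CYP21A2 transcripts, 20.0% occur in the pseudogene too, so the division of counts between the pair is uncertain. HSD3B2, the adrenal 3-beta-hydroxysteroid dehydrogenase, had 11.7, 6.99, 10.1 and 8.81 CPM, lowest in replicate 4. Per kilobase HSD3B2 had 4.03 ± 0.862 and CYP21A2 38.7 ± 3.20 CPM per kilobase. HSD3B1, the placental and skin form, had 0 counts, and only 0.171% of HSD3B2 stretches are shared with it.

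The last steps of that branch were near the limit of detection. CYP11B2, aldosterone synthase, had 14, 10, 12 and 12 counts, or 1.13 ± 0.193 CPM. CYP11B1, the 11-beta-hydroxylase that makes cortisol, had 4, 13, 6 and 2 counts, or 0.577 ± 0.449 CPM, with more counts in replicate 4 than in the other 3. Without replicate 4 the CYP11B1 mean was 0.360 CPM. Per kilobase these were 0.385 ± 0.0656 and 0.137 ± 0.107 CPM per kilobase, below most protein-coding genes in both cases. HSD11B2, which inactivates cortisol, had 1.88 ± 0.628 CPM, and HSD11B1, which regenerates it, had 0 counts in all 4 libraries.

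In the androgen branch, 14 of 17 genes (82.4%, against the background of 60.7%) reached 1 CPM in every library. CYP17A1, the 17-hydroxylase and 17,20-lyase, had 51.1, 43.1, 45.9 and 48.3 CPM, lowest in replicate 4, and 13.7 ± 0.991 CPM per kilobase. Another gene on the opposite strand covers 41.1% of its exons. POR, the reductase that feeds electrons to P450 enzymes of the endoplasmic reticulum, had 419 ± 18.5 CPM. The cytochrome b5 genes differed, with 57.4 ± 0.595 CPM per kilobase for CYB5B, the mitochondrial outer membrane form, and 2.71 ± 0.259 CPM per kilobase for CYB5A, the form that promotes the lyase reaction of CYP17A1. SULT2A1, which sulphates dehydroepiandrosterone, had 67.8, 58.8, 68.2 and 66.1 CPM, lowest in replicate 4. PAPSS1 and PAPSS2, which make the sulphate donor, had 55.0 ± 1.13 and 32.2 ± 3.65 CPM. SRD5A2, the 5-alpha-reductase of prostate and genital skin, had 0 counts, while SRD5A1 had 41.8 ± 6.22 CPM. AKR1C3, a 17-beta-hydroxysteroid dehydrogenase, had 46.6 ± 3.19 CPM.

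CYP19A1, the aromatase that makes oestrogens, had 20.0, 23.6, 21.2 and 24.3 CPM, or 2.64 ± 0.241 CPM per kilobase. Of the 13 oestrogen and other 17-beta dehydrogenase genes, 9 (69.2%) reached 1 CPM in every library. HSD17B10, a mitochondrial enzyme, was the highest of them at 70.6 ± 2.56 CPM per kilobase. HSD17B1, which makes oestradiol in the ovary, had 0.388 ± 0.168 CPM, and HSD17B2 had 0 counts. Over the 4 lists of steroid synthesis, 35 of 49 genes (71.4%) reached 1 CPM in every library, and 4 (HSD3B1, HSD11B1, SRD5A2 and HSD17B2) had 0 counts. The first share is near the 60.7% and the second count, 8.16%, below the 19.4% of all protein-coding genes. Their median was 4.03 CPM per kilobase, against 1.58 over all protein-coding genes.

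**Figure D2:**
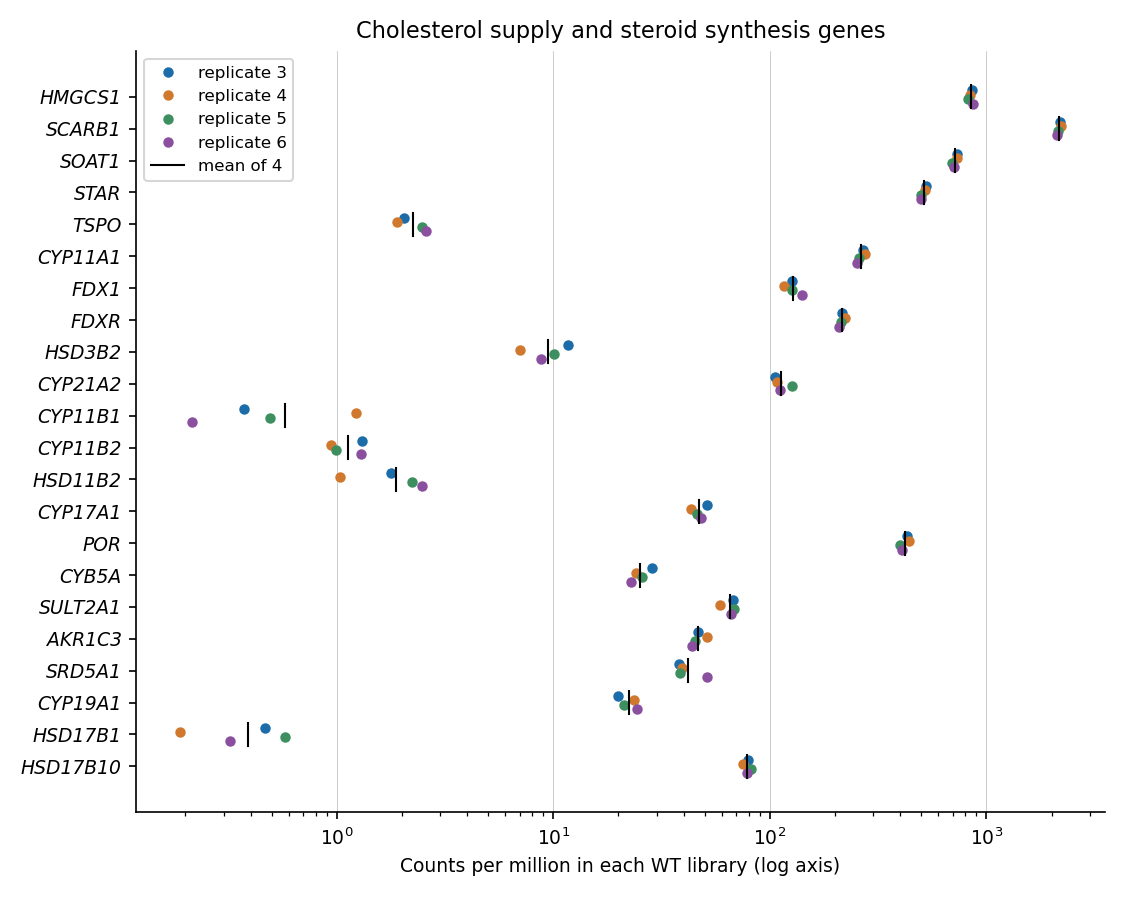
CPM of steroid synthesis genes and their cholesterol supply in each of the 4 WT libraries (points, log axis), with genes ordered by step from cholesterol supply to oestrogens, downwards. Black bars are means. The points of SCARB1, STAR and CYP11A1 lie close together above 200 CPM, whereas those of CYP11B1 run from 0.215 to 1.23 CPM.

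Of all 57 cytochrome P450 genes, 21 (36.8%) reached 1 CPM in every library and 17 had 0 counts. CYP11A1, CYP21A2 and CYP17A1 were the highest of the family per kilobase. CYP26B1, which breaks down retinoic acid, was next at 48.8 ± 2.75 CPM and 9.72 ± 0.549 CPM per kilobase. CYP27B1, the kidney enzyme that activates vitamin D, had 12.7 ± 1.25 CPM. CYP2E1, the alcohol-oxidising enzyme of liver, had 13.2 ± 2.39 CPM. The genes at 0 counts included CYP1A2, CYP2B6, CYP2C19 and CYP7A1, enzymes of the liver for drugs and bile acids.

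Transcripts of several genes for cholesterol synthesis and uptake were abundant. All 22 of 22 genes of cholesterol synthesis reached 1 CPM in every library, with a median of 30.0 CPM per kilobase. HMGCS1, which makes the precursor of mevalonate, had 860, 841, 825 and 866 CPM. Replicate 5 was lowest. CYP51A1, lanosterol demethylase, had 11.9 ± 1.09 CPM. Other genes on the same strand cover 79.4% of its exons.

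For uptake and storage, SCARB1 had 2181, 2205, 2135 and 2128 CPM, or 279 ± 4.78 CPM per kilobase. SOAT1, which esterifies cholesterol for storage, had 716 ± 17.8 CPM, and SOAT2, the form of liver and intestine, had 0 counts. INSIG1, the sterol sensor that holds back SREBP, had 384 ± 10.9 CPM, and LIPE, the hormone-sensitive lipase that frees stored cholesterol, 66.0 ± 7.27 CPM. PLIN2, a coat protein of lipid droplets, had 12, 4, 12 and 8 counts (0.836 ± 0.323 CPM).

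NR5A1 was the highest of 48 nuclear receptor genes and of 39 adrenal and gonadal transcription factors per kilobase. It had 563, 560, 535 and 513 CPM, lowest in replicate 6, and 159 ± 6.85 CPM per kilobase, above 99.4% of protein-coding genes. NR0B1, which encodes the SF-1 repressor DAX-1, had 12.4, 15.2, 11.8 and 9.24 CPM, highest in replicate 4 and lowest in replicate 6. Per kilobase it had 5.53 ± 1.11 CPM per kilobase. GATA4 and GATA6, zinc finger factors of gonad and adrenal cortex, had 11.4 ± 2.89 and 10.4 ± 1.01 CPM, levels that did not differ beyond their spread. NR5A2, the paralogue of NR5A1 in liver and ovary, had 0 counts, as had WT1 and TCF21, factors of the early urogenital ridge, and FOXL2, the ovarian factor. SOX9, the factor of the testis Sertoli cell, had 2 counts in replicate 3, 2 in replicate 6 and none in the others. Of the 39 transcription factors, 25 (64.1%) reached 1 CPM in every library, a share near the background of 60.7%.

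Among the nuclear receptors, 35 of 48 (72.9%) reached 1 CPM in every library and 3 had 0 counts, RXRG and NR5A2 among them. NR1D2, the clock repressor REV-ERB beta, was second to NR5A1 with 378, 391, 361 and 390 CPM. RORB, an orphan receptor known from retina and brain, had 381, 359, 365 and 386 CPM, lowest in replicate 4. Per kilobase NR1D2 had 65.3 ± 2.38 and RORB 38.9 ± 1.32 CPM per kilobase. As their CPM were close, this difference comes from the exon lengths used. Of the NR4A family, which ACTH and angiotensin II induce in adrenal cells, NR4A1 had 119 ± 5.20, NR4A3 74.3 ± 4.37 and NR4A2 4.37 ± 0.578 CPM. Per kilobase NR4A1 had 16.3 ± 0.713 CPM per kilobase, and steroid receptors were lower. The progesterone receptor PGR had 55.6 ± 5.37 CPM and the glucocorticoid receptor NR3C1 35.2 ± 2.87 CPM. Per kilobase PGR, NR3C1 and ESR2, an oestrogen receptor, had 3.61 ± 0.349, 3.84 ± 0.313 and 2.42 ± 0.219 CPM per kilobase, so that PGR and NR3C1 were not separated by their spread. The mineralocorticoid receptor NR3C2 had 1.11 ± 0.370 and ESR1 0.770 ± 0.141 CPM per kilobase. NR3C2 ranged from 4.51 CPM in replicate 6 to 10.4 CPM in replicate 4. HNF4A, of liver, and PPARG, of fat, stayed under 1 CPM in every library.

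Of 39 HOX genes, which set position along the body axis, 26 (66.7%, near the background of 60.7%) reached 1 CPM in every library. By cluster these were 8 of 11 HOXA, 9 of 10 HOXB, 7 of 9 HOXC and 2 of 9 HOXD genes, but 0 HOXC and 0 HOXD genes averaged 10 CPM. The highest per kilobase were HOXA11 at 22.8 ± 2.60, HOXA13 at 16.6 ± 1.69, HOXA5 at 16.6 ± 1.38 and HOXB9 at 16.3 ± 1.87 CPM per kilobase, of which the last 3 did not differ beyond their spread. HOXA11 shares 31.1% of its exons with a gene on the opposite strand. HOXB1, HOXD1, HOXD10 and HOXD11 had 0 counts. Of 19 SOX genes, 8 (42.1%) reached 1 CPM in every library, led by SOX12 at 136 ± 12.4 CPM and SOX4 at 67.4 ± 3.66 CPM, and SOX2, SOX10 and SOX17, factors of stem cells, neural crest and endoderm, had 0 counts.

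**Figure D3:**
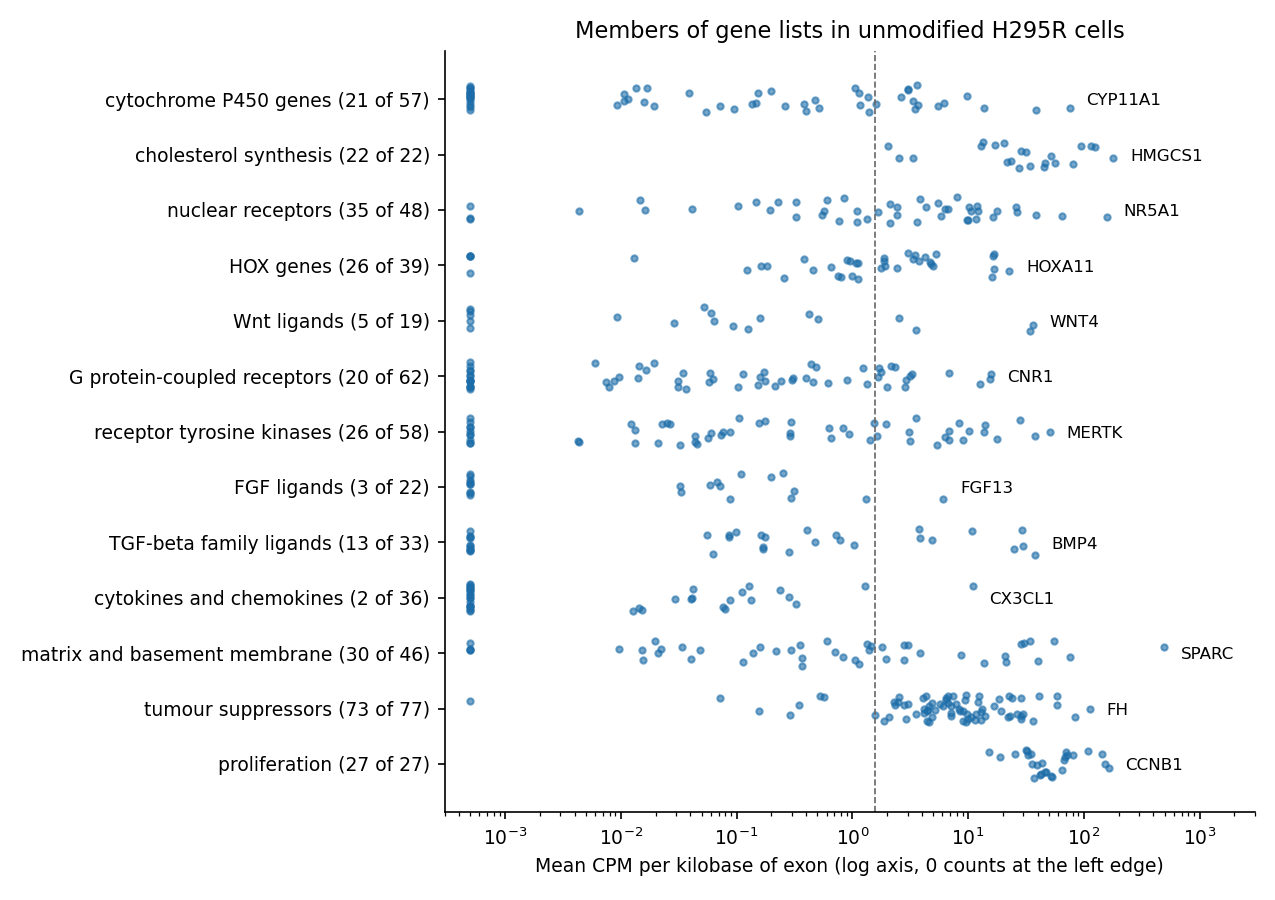
Mean CPM per kilobase of exon of every member of 13 gene lists (points, log axis), with lists running down the page and the highest member labelled. Points at the left edge are members with 0 counts in all 4 WT libraries, the dashed line is the median of all protein-coding nuclear genes (1.58 CPM per kilobase), and the number beside each list gives its members at 1 CPM or more in every library. Most FGF ligands and cytokines lie left of the dashed line, whereas most tumour suppressors lie right of it.

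Of 32 Wnt and beta-catenin factors, 21 (65.6%, near the background of 60.7%) reached 1 CPM in every library and 6 had 0 counts. CTNNB1, for beta-catenin, had 1159, 1170, 1140 and 1154 CPM, within a narrow range, and 96.9 ± 1.06 CPM per kilobase. Its targets AXIN2, LEF1, NKD1 and LGR5 had 79.5 ± 6.13, 56.5 ± 2.85, 68.1 ± 6.83 and 14.6 ± 1.82 CPM. Only 5 of 19 Wnt ligands (26.3%, below the background of 60.7%) reached 1 CPM in every library. WNT4, a ligand of the zona glomerulosa, had 169, 169, 163 and 159 CPM, and WNT11 had 82.1, 82.4, 79.2 and 82.8 CPM. Per kilobase the pair had 36.4 ± 1.08 and 34.0 ± 0.668 CPM per kilobase, and the next ligand, WNT3, had 3.55 ± 0.472. Of 10 Frizzled receptors 8 (80.0%) reached 1 CPM in every library, led by FZD7 at 101 ± 4.20 and FZD6 at 82.5 ± 3.13 CPM. SFRP1, a secreted inhibitor, had 95.7 ± 3.93 CPM. RSPO1, RSPO2 and RSPO3, secreted enhancers of Wnt signals, had 0 counts in all 4 libraries.

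The receptor for ACTH was weakly expressed. MC2R had 5.59, 6.24, 6.33 and 4.41 CPM, lowest in replicate 6, and 1.51 ± 0.237 CPM per kilobase, above 49.5% of protein-coding genes. MRAP, the accessory protein that MC2R needs at the cell surface, had 2, 3, 8 and 2 counts (0.336 ± 0.219 CPM). A gene on the opposite strand covers 69.9% of its exons. MRAP2 had 0 counts, as had MC3R, MC4R and MC5R. MC1R, the receptor of pigment cells, had 7.08 ± 1.75 CPM, but other genes on the same strand cover 37.7% of its exons.

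Some genes behind the receptor were higher per kilobase, with 71.4 ± 1.65 for GNAS and 93.6 ± 3.15 CPM per kilobase for PRKAR2B. GNAS, for the stimulatory G protein, had 957, 972, 954 and 920 CPM, and PRKAR2B, a regulatory subunit of protein kinase A, 405, 396, 392 and 423 CPM. PRKAR1A had 402 ± 15.3 CPM and the catalytic subunit gene PRKACA 179 ± 12.9 CPM. PDE2A, a phosphodiesterase that cyclic GMP stimulates, had 350, 352, 343 and 348 CPM, with a CV of 1.09%. PDE8B, the phosphodiesterase of adrenal cortex with a role in inherited adrenal disease, had only 7, 14, 18 and 8 counts, and other genes on its strand cover 41.6% of its exons. Of the 30 genes for ACTH and cyclic AMP, 18 (60.0%) reached 1 CPM in every library, about the background share.

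Of the genes for angiotensin, potassium and calcium, 17 of 24 (70.8%, against the background of 60.7%) reached 1 CPM in every library. AGTR1, the angiotensin II receptor of the zona glomerulosa, had 167, 162, 158 and 167 CPM and 47.0 ± 1.18 CPM per kilobase. AGTR2 and ACE had 0 counts. KCNK3 had 1434, 1422, 1347 and 1357 CPM, with replicates 5 and 6 lower, and 223 ± 7.15 CPM per kilobase, above 99.7% of protein-coding genes. KCNJ5, a potassium channel that is mutated in aldosterone-producing adenomas, had 192, 187, 192 and 183 CPM. The calcium channels CACNA1D and CACNA1H had 4.99 ± 0.0914 and 4.80 ± 0.423 CPM per kilobase, which did not differ beyond their spread. AGTR1 and KCNJ5 were thus well above MC2R per kilobase, as KCNJ5 had 30.8 ± 0.723 CPM per kilobase.

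Other receptors of hormones and transmitters were mostly low or silent. Of 62 G protein-coupled receptor genes, 20 (32.3%) reached 1 CPM in every library and 14 had 0 counts, among them FSHR and LHCGR, the gonadotropin receptors, and GLP1R. The highest per kilobase were CNR1, the cannabinoid receptor, with 92.4, 103, 103 and 102 CPM, and S1PR3, a sphingosine 1-phosphate receptor, with 217, 212, 200 and 212 CPM. Per kilobase these had 15.7 ± 0.801 and 15.5 ± 0.531 CPM per kilobase and were not separated. GNRHR, the receptor for gonadotropin-releasing hormone, had 27.3 ± 1.52 CPM and TSHR, the thyrotropin receptor, 17.4 ± 2.98 CPM.

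Of 58 receptor tyrosine kinases, 26 (44.8%) reached 1 CPM in every library and 10 had 0 counts. MERTK, a receptor for the ligands GAS6 and protein S in the clearance of dying cells, had 251, 239, 222 and 240 CPM and was highest per kilobase at 50.6 ± 2.55. DDR1, a collagen receptor, had 352, 373, 343 and 325 CPM and 38.2 ± 2.21 CPM per kilobase. EPHB4 had 180 ± 9.31, FGFR1 195 ± 4.47 and IGF1R 190 ± 14.2 CPM, and per kilobase FGFR1 (14.1 ± 0.323) and IGF1R (13.6 ± 1.02 CPM per kilobase) did not differ beyond their spread. GAS6 itself had 2, 10, 4 and 3 counts. EGFR had 20.6 ± 3.94 and ERBB2 8.63 ± 1.56 CPM. KIT, the stem cell factor receptor, had 1.63 ± 0.337 CPM, while PDGFRA, KDR and FLT1, of mesenchyme and endothelium, stayed under 1 CPM.

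Of 28 cytokine and growth hormone receptors, 18 (64.3%, near the background of 60.7%) reached 1 CPM in every library. TNFRSF1A led at 29.4 ± 0.617 CPM per kilobase. IL6ST, the shared receptor of the interleukin 6 family, had 24.7 ± 0.650 CPM per kilobase. The prolactin receptor PRLR had 0.346 ± 0.306 CPM. Of 15 TGF-beta family receptors, 13 (86.7%) reached 1 CPM in every library, and TGFBR1 had 183 ± 6.47 CPM. AMHR2, the receptor of anti-Müllerian hormone, had 17.4, 21.3, 16.9 and 15.8 CPM, highest in replicate 4. Its ligand AMH had 72.4, 85.3, 75.5 and 71.5 CPM, with the same library highest. Of the Notch receptors, NOTCH2 had 262, 217, 262 and 267 CPM, lowest in replicate 4, and NOTCH3 had 18.4, 21.4, 16.8 and 19.6 CPM. The Hedgehog ligand SHH, made in mice by progenitor cells under the adrenal capsule, had 3.21 ± 0.257 CPM, its receptor PTCH1 4.81 ± 1.66 and SMO 65.4 ± 3.10 CPM.

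Growth factors and cytokines were sparse. In 6 lists with 157 genes, 49 (31.2%) reached 1 CPM in every library, against 60.7% of all protein-coding genes, and 44 had 0 counts. IGF2, the fetal growth factor that is often over-expressed in adrenocortical carcinoma, belongs to the IGF axis and had 146, 144, 132 and 134 CPM. Its level was 19.9 ± 1.01 CPM per kilobase, above 88.1% of protein-coding genes. Other genes on the same strand, among them a readthrough gene that starts at insulin, cover 73.7% of the IGF2 exons, so its count may be incomplete. H19, the imprinted long RNA beside IGF2, had 0, 4, 3 and 2 counts, and the insulin gene INS had 0 counts. IGFBP2, a binding protein, had 152, 152, 140 and 130 CPM, and IRS2, which links the IGF1 receptor to phosphoinositide kinase, 490 ± 8.62 CPM. IGF1 stayed under 1 CPM in every library.

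VEGFA, the main angiogenic factor, had 219, 221, 220 and 228 CPM and HDGF, a growth factor found mostly in the nucleus, 587, 562, 554 and 550 CPM. CCN3, a secreted matricellular regulator that adrenocortical cells make, had 259, 248, 238 and 261 CPM and 94.1 ± 3.86 CPM per kilobase. Of 33 TGF-beta family ligands, 13 (39.4%, below the background of 60.7%) reached 1 CPM in every library. Per kilobase they were led by BMP4 at 37.9 ± 1.38, TGFB1 at 30.1 ± 2.11 and AMH at 29.5 ± 2.44. The last pair did not differ beyond their spread. INHA, the alpha subunit of inhibin, had 11.6, 8.13, 8.06 and 6.77 CPM, highest in replicate 3. Of 22 FGF ligands, 3 (13.6%) reached 1 CPM in every library. FGF13, an intracellular member that is not secreted, had 127 ± 6.75 CPM, and FGF9 and FGF2 had 5.97 ± 1.32 and 2.02 ± 0.546 CPM. Of 36 cytokines and chemokines, 2 (5.56%) reached 1 CPM in every library. These were CX3CL1, fractalkine, with 61.8, 76.4, 58.8 and 66.6 CPM, highest in replicate 4, and TNFSF10, the death ligand TRAIL, with 4.47 ± 0.477 CPM. IL6, TNF, CCL2 and CXCL12 were among the 18 with 0 counts. MIF, a cytokine that many cell lines make in quantity, had 4, 0, 0 and 2 counts, and other genes overlap 32.2% of its exons on the same and 61.9% on the opposite strand.

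Genes of matrix and basement membrane were uneven. Of 46 genes, 30 (65.2%, near the background of 60.7%) reached 1 CPM in every library, and the median was 0.769 CPM per kilobase, below the 1.58 of all protein-coding genes. SPARC, described with the highest genes, led the list. LAMB1 and LAMC1, laminin chains, had 617 ± 18.4 and 464 ± 27.5 CPM. COL4A1 and COL4A2, the collagen IV chains that are transcribed from a shared promoter, had 312 ± 7.23 and 589 ± 18.0 CPM, and per kilobase 21.2 ± 0.490 and 30.5 ± 0.935 CPM per kilobase. NID1, nidogen, which links laminin to collagen IV, had 40.5 ± 0.985 CPM per kilobase. Collagen I was unequal, as COL1A1 had 16.8, 19.7, 18.7 and 15.8 CPM and COL1A2 had 0 counts in all 4 libraries. ELN and POSTN also had 0 counts. Fibronectin, FN1, had 15.8, 16.1, 20.6 and 21.3 CPM, lower in replicates 3 and 4 than in 5 and 6.

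Among proteases and their inhibitors, the inhibitors led. TIMP3, an inhibitor of metalloproteinases that binds to matrix, had 927, 936, 908 and 892 CPM and A2M, the broad protease inhibitor alpha-2-macroglobulin, 844, 893, 859 and 838 CPM. SERPINA5, the protein C inhibitor, had 434 ± 11.6 CPM. PLAU, urokinase, had 0 counts. Of 41 carriers and plasma proteins, 13 (31.7%) reached 1 CPM in every library. CLU, clusterin, had 296 ± 16.3 CPM, and the complement proteases C1S and C1R 109 ± 4.23 and 56.7 ± 2.59 CPM. APOE, a lipid carrier that the adrenal gland makes, had 2.78 ± 0.817 CPM.

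Tumour suppressor genes were nearly all transcribed. Of 77 genes in 3 lists, 73 (94.8%) reached 1 CPM in every library, against the background of 60.7%, and the median was 7.17 CPM per kilobase. WT1 alone had 0 counts. The other 3 under 1 CPM in at least 1 library were CDKN1C, an imprinted inhibitor of cell cycle kinases, with 12, 12, 4 and 8 counts, CDH1, E-cadherin, with 6, 4, 5 and 4 counts, and PDE8B. RB1, which holds back entry into the cell cycle, had 30.7, 26.2, 28.6 and 29.0 CPM. A count says nothing of whether the transcript is intact, so a mutated gene and an intact one can have the same level.

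The inhibitors of cell cycle kinases differed widely, from CDKN1C, given above, to CDKN2C. CDKN2C, for p18, had 279, 288, 269 and 275 CPM, CDKN1B, for p27, 111, 114, 116 and 117 CPM, and CDKN1A, for p21, 111, 118, 109 and 108 CPM. Per kilobase CDKN2C, at 83.7 ± 2.36, was above CDKN1B, at 40.7 ± 1.02 CPM per kilobase. CDKN2A, for p16 and ARF, had 97.9 ± 5.19 CPM, and its neighbour CDKN2B 9.58 ± 1.59 CPM. Of genes with a known role in adrenal tumours, MEN1 had 94.5 ± 4.82, ZNRF3 98.0 ± 3.02, APC 117 ± 3.69, DAXX 88.2 ± 4.79 and ATRX 79.7 ± 8.47 CPM. ARMC5, of inherited bilateral adrenal hyperplasia, had 13.8 ± 1.27 CPM. FH, fumarase, was highest of the 77 per kilobase at 113 ± 1.20 CPM per kilobase.

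Genes of growth and division were high. All 27 of 27 proliferation genes reached 1 CPM in every library and 24 averaged at least 100 CPM. TOP2A had 893, 895, 923 and 960 CPM. MKI67, for the proliferation antigen Ki-67, had 501, 495, 579 and 625 CPM, higher in replicates 5 and 6 than in 3 and 4. Of 30 oncogenes and telomere genes, 25 (83.3%, against the background of 60.7%) reached 1 CPM in every library. MYC had 48.3 ± 4.68 CPM and MYCN had 0 counts. CCND1, cyclin D1, had 4, 0, 1 and 2 counts, while the other D cyclins CCND2 and CCND3 had 46.3 ± 4.34 and 80.3 ± 3.11 CPM and CDK4, their partner, 156 ± 5.63 CPM. TERT, the catalytic subunit of telomerase, had 1 count in replicate 4 and 0 in the others. ABCB1, a drug efflux pump, had 529, 522, 546 and 528 CPM and 91.5 ± 1.79 CPM per kilobase, above 98.5% of protein-coding genes. FSCN1, an actin bundler, had 922 ± 28.9 CPM.

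Of 36 imprinted genes, which are read from the copy of 1 parent, 24 (66.7%, near the background of 60.7%) reached 1 CPM in every library. DLK1 and PEG10 were the highest, followed per kilobase by GNAS and NDN. PLAGL1 had 411 ± 10.1, MEST 191 ± 5.83, PEG3 129 ± 3.96 and NDN 109 ± 6.33 CPM. KCNQ1, PHLDA2 and DIO3, which lies in the imprinted region of DLK1 and MEG3, had 0 counts.

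Several gene families were nearly silent. Of 388 olfactory receptor genes, 357 had 0 counts and 0 reached 1 CPM in every library. The same held for 88 of 94 keratin-associated protein genes, 35 of 39 beta defensin genes and 18 of 18 late cornified envelope genes, families of skin and hair. These families were chosen after the values were seen. The MAGE family, which is normally read in the germ line and often in tumours, differed from them. Of 26 MAGE genes, 9 (34.6%) reached 1 CPM in every library, below the background of 60.7%. At 0 counts were 8 (30.8%), against 19.4% of all protein-coding genes. But 4 averaged at least 100 CPM, as did 2414 of all 19889 protein-coding nuclear genes. MAGEA3 had 322, 319, 342 and 329 CPM and MAGEC2 160, 168, 167 and 158 CPM. MAGEA6 and MAGEA12 had 197 ± 6.90 and 154 ± 5.49 CPM, but counts of these close paralogues may be exchanged. PRAME, another gene of germ line and tumours, had 91.2 ± 5.53 CPM, while NANOG, POU5F1 and DDX4, of stem and germ cells, stayed under 1 CPM.

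Markers of other lineages differed by list, and their part in the results was not tested. None of the immune or erythroid markers reached 1 CPM in every library. Of the neuronal markers 55.6% did, near the background of 60.7%. NCAM1, a cell adhesion molecule, and SYP, synaptophysin, both used to mark neuroendocrine cells, had 296 ± 4.59 and 47.3 ± 2.29 CPM. The granin genes CHGB and CHGA, for proteins of secretory granules, had 30.5 ± 1.51 and 3.04 ± 0.873 CPM. Summed, the 14 chromaffin markers had 374 to 383 CPM, most of it NCAM1. Of 9 fibroblast markers 2 reached 1 CPM, FAP with 31.0 ± 2.69 CPM and COL1A1, and their sum was 48.6 to 52.4 CPM. The 9 endothelial markers summed to 2.17 to 3.78 CPM, with CDH5 and TIE1 at 0 counts. The 12 immune markers summed to 3.45 to 5.75 CPM, with CD3D, CD3E, CD68 and TYROBP at 0 counts. Of 9 neuronal markers 5 reached 1 CPM, led by NEFL, a neurofilament, at 92.8 ± 4.37 CPM. The intermediate filament gene VIM had 432 ± 4.51 CPM, while KRT8 and KRT18, keratins of simple epithelia, had 1.07 ± 0.750 and 2.63 ± 0.541 CPM. Without replicate 6, KRT8 averaged 0.704 CPM.

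The spread between libraries depended on the level. The median CV was 21.8% for genes of 1 to 10 CPM, 7.75% for 10 to 100, 3.96% for 100 to 1000 and 2.14% for 1000 CPM or more. The CV expected from counting error alone, computed from the mean count of each gene, had medians of 15.7%, 5.14%, 2.37% and 0.818%. A CV estimated from 4 libraries is not quite the same measure. For the 9557 protein-coding nuclear genes at 10 CPM or more the median CV was 6.46%, and the common biological coefficient of variation by edgeR, the spread beyond counting error, was 6.47% over 14015 genes. OGA, which removes the sugar N-acetylglucosamine from proteins, varied least, with 165.8, 165.9, 166.1 and 165.7 CPM. Its CV of 0.108% is smaller than counting error gives on average at that depth, and it was the smallest of the 9557 genes. HDLBP, an RNA-binding protein, EIF3I, a translation factor, and PSMB2, of the proteasome, were the next most even genes.

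The 6 most variable genes at 10 CPM or more had close copies elsewhere in the genome. MOB2, AKAP5, RNF150 and ARHGAP45 followed, with CVs of 31.0 down to 29.6%, and were not examined for copies. U2AF1L5, a copy of the splicing factor gene U2AF1, had 6.34, 7.94, 7.97 and 35.4 CPM, and U2AF1 had 8.67, 54.5, 18.7 and 11.3 CPM. The first was thus high in replicate 6 and the second in replicate 4. They share 89.4% of the 100-base stretches of U2AF1, and their sum still ranged from 15.0 to 62.4 CPM, with a CV of 55.8%. CKMT1B, a mitochondrial creatine kinase, had 15.9, 11.8, 48.9 and 17.1 CPM, high in replicate 5, and its sum with CKMT1A had a CV of 58.6%. NOMO3 had 10.2, 26.5, 7.89 and 6.88 CPM, high in replicate 4, but the sum of NOMO1, NOMO2 and NOMO3 had a CV of 5.42%. EIF3C and GPR89A, with the copies EIF3CL and GPR89B, came next, and the sums of these pairs had CVs of 37.6% and 30.0%. Single libraries carried these levels. U2AF1L5 averaged 14.4 CPM over all 4 libraries and 7.42 CPM without replicate 6, U2AF1 23.3 CPM and 12.9 CPM without replicate 4, CKMT1B 23.4 CPM and 14.9 CPM without replicate 5, and NOMO3 12.8 CPM and 8.31 CPM without replicate 4. The sums were computed after the values were seen. Of the 100-base stretches of CKMT1B, NOMO3, EIF3C and GPR89A, 54.0%, 58.7%, 40.5% and 52.8% occur in their copies too.

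**Figure D4:**
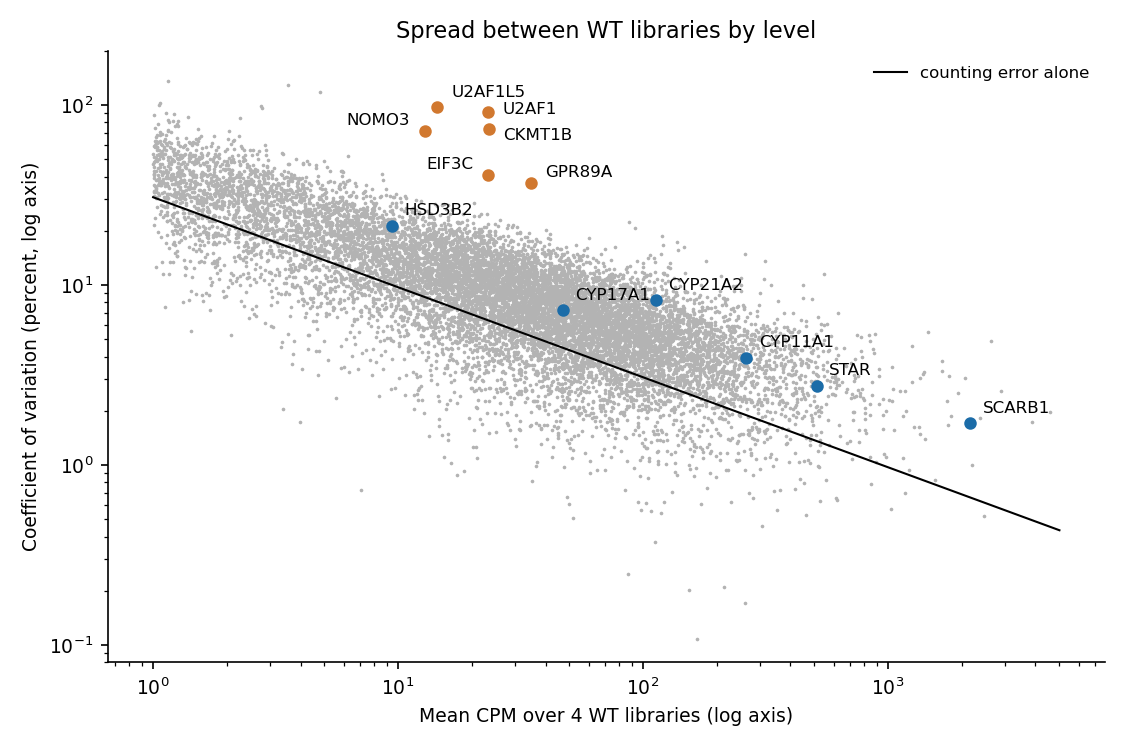
Coefficient of variation over the 4 WT libraries (percent, log axis) against mean CPM (log axis) for protein-coding nuclear genes at 1 CPM or more on average. The line is the CV that counting error alone would give at the mean depth. Labelled points are the 6 most variable genes at 10 CPM or more, all of which have a close copy, and the genes of steroid synthesis named beside them, which lie in the main cloud.

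The share of genes at 1 CPM in every library differed with how genes lie over each other. On the same strand, with almost no cover on the opposite one, it was 0.87% (3 of 345) for protein-coding genes with 90 to 100% of their exons under another gene, 72.3% of 1283 with up to 25% and 56.4% of 11603 with no cover. On the opposite strand it was 13.6% (3 of 22) with 90 to 100% cover, 76.6% of 4883 with up to 25% and 55.5% of 11181 with none. With 25 to 50, 50 to 75 and 75 to 90% cover it was 47.7%, 28.5% and 9.24% on the same strand. The same classes had 66.9%, 52.7% and 30.8% on the opposite strand. Among genes with cover the share thus fell with each step on both strands. Genes with no cover lay below those with up to 25%. The part of overlap in single counts was not tested. Some genes that every cell needs were also near 0. RPS10, a ribosomal protein gene with 39.4% of its exons under other genes on its strand, had 5, 4, 33 and 12 counts, a mean of 1.21 CPM, or 0.711 CPM without replicate 5. MRPL53, of the mitochondrial ribosome, with 45.2%, had 0 counts. NDUFV2, a core subunit of respiratory complex I, had 7, 1, 1 and 0 counts. MRPL2, of the mitochondrial ribosome too, had 19, 23, 35 and 8 counts with no cover on its strand and 14.7% on the opposite one. A low count of an overlapped gene does not show that the gene is off. These genes were chosen after their values were seen.

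The promoters shown above were set beside those of other genes. RefSeq windows of 250 bases before the start were matched by symbol for 15164 protein-coding genes. The ratio of observed to chance CG pairs had a median of 0.256 for genes with 0 counts, 0.464 for genes under 1 CPM, 0.744 for 1 to 10 CPM, 0.835 for 10 to 100 CPM and 0.866 for 100 CPM or more. It was 0.223 for CYP11A1 at 264 CPM and 0.103 for CYP17A1, both below the median of genes with 0 counts, whereas FDX1 had 0.846. CYP21A2 had 0.276 and FDXR, at 215 CPM, 0.901. Other genes of the steroid lists varied, with 0.244 for H6PD at 52.6 CPM. The ratio was 0.904 for SRD5A2, which had 0 counts, and 1.11 for STARD6 at 0.0672 CPM. The median of the 28 steroid synthesis genes with a matched window and 1 CPM or more in every library was 0.785. Of 2038 genes at 100 CPM or more, 88.2% had a ratio of at least 0.6, and CYP11A1 and CYP21A2 were thus exceptions among highly expressed genes. DNA methylation was not measured.

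**Figure D5:**
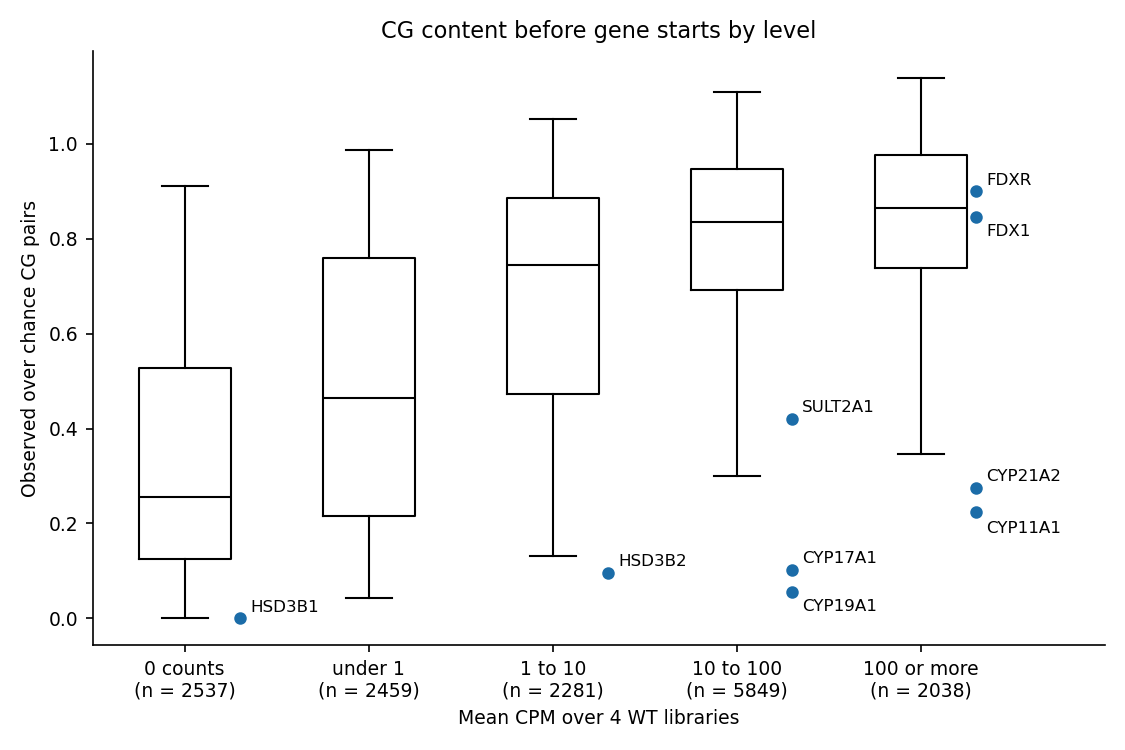
Ratio of observed to chance CG pairs in the 250 bases before the start of 15164 protein-coding genes, by mean level in the 4 WT libraries, where boxes run from the lower to the upper quartile with the median as a line and whiskers from the 5th to the 95th percentile. Labelled points are steroid synthesis genes. CYP11A1 and CYP21A2 lie at the low end of their level class, while FDX1 and FDXR lie near the medians of theirs.

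SF-1 is known to bind AAGGTCA and AAGGCCA, so both were searched in these windows on both strands. The motifs differ at 1 base, so a stretch cannot match both on a strand, and overlap with other matches was allowed. AAGGTCA occurred in 2.77% of all 15164 windows, AAGGCCA in 4.08% and either in 6.70%. Windows were matched for 28 of the 35 steroid synthesis genes at 1 CPM or more in every library. STAR, POR and PAPSS2 were among those with no matched window. HSD11B2, CYP11B1 and CYP11B2 had none either, and none of these genes was searched. Of the 28 matched genes, 14.3% held either motif, and these 4 were CYP21A2, CYP11A1, H6PD and HSD17B10. HSD3B1, with 0 counts, held AAGGTCA too. Over all genes either motif occurred in 4.47% of windows at 100 CPM or more and in 9.38% of windows of genes with 0 counts. Matches in the first pair are shown as 30 bases of the gene strand with the motif in capitals, or its reverse complement where it lies on the other strand.
CYP21A2, chr6:32038169-32038198, plus strand: gatgcaggaaaAAGGTCAgggttgcatttc
CYP21A2, chr6:32038239-32038268, plus strand: acggacgtcccAAGGCCAatgagactggtg
CYP11A1, chr15:74367675-74367704, minus strand: agcttctggtaTGGCCTTgagctggtagtt
The CYP11A1 match began 47 bases before the RefSeq start and lies in the sequence printed above. No match in the window of another gene says only that these letters do not occur there, and a match is not evidence that SF-1 binds.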

How the data were processed

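RNA of 4 WT libraries of H295R cells was sequenced by the authors and deposited as raw gene counts, whole numbers with no normalisation, per Ensembl gene and library. Of tools and builds the labels name only FastQC, HISAT2, featureCounts of Subread, DESeq2 and GRCh38, per the submitters' processing notes, and no role or order. Nothing states the annotation release, whether counting used strand, what became of multi-mapped reads, or whether read pairs counted once (not given in the sources used here), and each could move counts of overlapping or copied genes.

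The 3 lines that name no gene and 1 gene with blank values, ANK2, were left out, and all columns of counts were mapped to samples. Symbols came from a gene name table (40582 genes), and coordinates, classes, exon lengths and exon overlaps (bedtools 2.31.1) from GENCODE on GRCh38 (58452 genes). A symbol shared by several genes went to the gene with the highest count sum. CPM used the sum of all gene counts in a library, 9303266 to 12164240, and were divided by the length of the merged exons for values per kilobase. The spread beyond counting error was estimated with edgeR 4.0.16 in R 4.3.3 after TMM scaling of genes with at least 10 counts in all 4 libraries, a step checked on simulated data. Size factors of DESeq2 1.42.0 were an alternative. Tables were made with Python 3.11.15 and pandas 2.3.3. Promoters came from RefSeq on GRCh38.p14 (35116 entries, the first listed for a symbol, 15164 genes matched).

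No test was run, because a single group is described. The 53 gene lists (1195 genes found, and 1 more that was not found) were chosen with earlier results of these data known. Genes were named as the highest per kilobase and the members at 0 counts of each list, with further list members of known role chosen for description, the 25 highest genes by CPM and per kilobase, the genes of highest and lowest CV, and DLK1. Genes outside this rule were chosen after their values were seen. Some list members are not reported here.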

Additional observations from a re-analysis of the deposited data

Results flagged for a closer look

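In 10 of 216 values examined (4.63%), 1 library stood apart from the other 3 by a gap that takes up nearly the whole range of the group. Chance gives about 1 such group in 20. The 84 named genes that averaged under 1 CPM were not examined.

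The share of counts on the 10 highest genes was 7.94% in replicate 5, against 7.35 to 7.44% in the other 3 libraries, and these genes include several of the mitochondrial genome. Replicate 6 stood apart for 5 genes. SRD5A1, the 5-alpha-reductase, had 51.1 CPM there and 38.1 to 39.4 CPM in the others. ESR1, the oestrogen receptor, had 13.5 CPM there and 9.26 to 9.98 CPM in the others. The ATP synthase gene ATP5F1B was lower there at 1306 CPM, against 1346 to 1352 CPM, and the keratin gene KRT10 at 24.4 CPM, against 29.4 to 29.6 CPM. U2AF1L5 had 35.4 CPM there, against 6.34 to 7.97 CPM.

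Replicate 4 was low for NOTCH2, a Notch receptor, at 217 CPM, against 262 to 267 CPM in the others, and high for NOMO3 at 26.5 CPM, against 6.88 to 10.2 CPM. In replicate 5, CKMT1B had 48.9 CPM, against 11.8 to 17.1 CPM. In replicate 3, the cannabinoid receptor gene CNR1 had 92.4 CPM, against 101.9 to 103 CPM. U2AF1L5, CKMT1B and NOMO3 have close copies, and the part of read assignment between copies was not tested.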

How the results depend on the processing

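No paired analysis was possible because no groups were compared and no result comes from a test. Scaling by TMM or by DESeq2 size factors moved the levels of 207 named genes at 1 CPM or more by -0.174 to 0.157% and left all 291 named levels within 1 SD. Both scalings were set to keep the geometric mean of the library sizes, so a mean over the 4 libraries can move little by construction. The TMM factors of the libraries were 0.996 to 1.003. Leaving out the genes of the mitochondrial genome raised levels by 8.52 to 8.84%, which took 129 of 288 past 1 SD, and the share of counts on the 100 highest genes became 12.6%, in place of 18.6%. With 0.5 or 5 CPM in place of 1 CPM, 15026 or 10984 genes passed in every library, with 37 or 31 steroid synthesis genes, 37 or 30 nuclear receptors, 27 or 21 receptor tyrosine kinases and 74 or 71 tumour suppressors. The genes with 0 counts numbered 3857 among protein-coding genes alone, in place of 33135 of all classes. The median CV was 8.15% for genes at 1 CPM or more and 3.92% at 100 CPM or more, in place of 6.46% at 10 CPM, and the biological coefficient of variation was 5.91% for genes at a mean of 10 CPM, in place of 6.47%. Each of these follows from the genes that enter.

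Leaving out each library in turn gave a median CV of 5.73 to 6.20%, a biological coefficient of variation of 5.97 to 6.78%, 13987 to 14021 genes at 1 CPM, 34152 to 34445 genes with 0 counts, 35 to 36 steroid synthesis genes and 35 to 36 nuclear receptors. It moved a named level by over 1.5 times for U2AF1L5, U2AF1, CKMT1B, NOMO3, KRT8 and RPS10 among genes at 1 CPM or more, with the values given beside each. It did so for 17 named genes under 1 CPM, which have few counts, among them CYP11B1 at 0.360 CPM without replicate 4. Ranks per kilobase depend on gene length. With the longest transcript as length, 38 of 198 ranks moved by over 1.5 times, and with no length 83 of 198 did. The sums over close copies were chosen after seeing the data. At this depth a gene of 1 CPM has about 10 counts in a library, so levels under 1 CPM rest on few counts.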

Other observations

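Genes of the respiratory chain had medians above the 1.58 CPM per kilobase of all protein-coding genes. All 34 of 34 genes for the nuclear subunits of respiratory complexes II to V reached 1 CPM in every library, with a median of 37.1 CPM per kilobase. Of 37 complex I genes 34 did, with a median of 20.5 CPM per kilobase, and NDUFV2, NDUFA7 and NDUFA13 averaged 0.207, 0.489 and 1.92 CPM. Without replicate 3 NDUFV2 averaged 0.0589 CPM. ATP5F1B, for the catalytic beta subunit of ATP synthase, had 1352, 1346, 1348 and 1306 CPM in replicates 3, 4, 5 and 6, and 576 ± 9.31 CPM per kilobase. COX6B1, of cytochrome c oxidase, had 143 ± 11.3 CPM per kilobase, and SDHA, the flavoprotein of succinate dehydrogenase, 2.27 ± 0.211 CPM per kilobase. From the mitochondrial genome, MT-CO1, another subunit of the oxidase, had 15243, 15035, 16186 and 15525 CPM, highest in replicate 5. MT-ND4, of complex I, had 12596, 12534, 13643 and 12956 CPM, with the same library highest. MT-ND6, which is read from the other strand of the mitochondrial DNA, had 1092 ± 38.6 CPM.

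All 20 of 20 genes of antioxidant defence reached 1 CPM in every library, with a median of 41.7 CPM per kilobase. The peroxiredoxin gene PRDX5 had 275 ± 16.1 CPM per kilobase, thioredoxin, TXN, 250 ± 12.3 and the superoxide dismutase gene SOD1 118 ± 5.73 CPM per kilobase. AIFM2, a ferroptosis suppressor, had 3.46 ± 0.897 CPM. The 14 proteasome core genes and 12 RNA polymerase II genes also reached 1 CPM in every library, with medians of 61.1 and 28.3 CPM per kilobase. After MEG3, and with pseudogenes left out, the highest nuclear RNAs that do not code for protein were NORAD at 576 ± 15.0 CPM and FGD5-AS1 at 379 ± 9.22 CPM. MALAT1, a nuclear long RNA, had 255, 277, 314 and 347 CPM and NEAT1, of the paraspeckle, 165, 175, 200 and 218 CPM, both lowest in replicate 3 and highest in replicate 6, as MEG3 was. Of 11 gonadal somatic markers 4 reached 1 CPM, namely AMH, CYP19A1, AMHR2 and INHA, and their list summed to 119 to 139 CPM. The hepatocyte, erythroid and striated muscle lists summed to 11.3 to 16.3, 0.186 to 1.04 and 2.55 to 5.48 CPM. The keratinocyte list summed to 24.6 to 29.6 CPM, nearly all of it KRT10, and the germ and embryonic list to 86.9 to 100.1 CPM, nearly all of it PRAME.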
